A study of Mus musculus with 32 samples.

Results

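Helper T cells that had met their antigen for 72 h were compared with helper T cells kept for 72 h without it. The comparison used 6 of the 32 arrays of the series, 3 with antigen and 3 without, chosen by their titles (ovalbumin, OVA, against untreated) on the 72 h platform, HT_MG-430_PM. The CD4+ T cells came from axial and cervical lymph nodes of DO11.10 TCR transgenic Balb/c mice, whose transgenic T cell receptor recognizes a peptide of OVA. In both groups the T cells lay on macrophages taken from the peritoneal cavity after thioglycollate, an irritant that draws macrophages into it, in medium for which the labels name no reduced amino acid. The antigen group received the OVA peptide and the no antigen group did not. After 72 h viable CD4+ singlets were sorted and 100 ng of RNA from each sample was hybridised. The labels do not say how pure the sorted cells were, how many mice or wells stood behind an array, or whether replicates were separate cultures. The p-values therefore measure only how far these arrays spread, which may be technical. A group of 3 arrays with antigen on macrophages pretreated with IL-4 and IL-10 entered the fit to estimate the spread and is set beside the others where cell type markers are described.

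A naive helper T cell circulates in a resting state held by factors such as KLF2. When its receptor meets peptide on MHC class II together with costimulation, signals through NFAT, NF-κB and AP-1 switch on IL-2, the high-affinity IL-2 receptor and MYC. The cell then grows, divides repeatedly and acquires effector functions, while inhibitory receptors such as CTLA-4 appear and limit the response. Cells washed from the peritoneal cavity are mostly leukocytes, with macrophages prominent among them. The cavity is lined by mesothelial cells, and fibroblasts lie beneath them in a collagen-rich matrix.

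Expression is given on the log2 scale of the deposited RMA values, on which a difference of 1 is a doubling and values near 3 lie at the lower end of the arrays. Of 17097 genes tested with limma, 6527 (38.2%) were called at a Benjamini-Hochberg adjusted p below 0.05, and 3545 (20.7%) were higher and 2982 (17.4%) lower with antigen. Changes of at least 4-fold were called for 514 genes that rose (3.01%) and 999 that fell (5.84%). Replicates were close, with correlations across genes of 0.9876 to 0.9949 within the antigen group and 0.9854 to 0.9906 within the no antigen group, against 0.8658 to 0.8826 between groups. For 46.7% of all genes the values of both groups did not overlap. The split between rises and falls depended on the scale. Centring each array on its own median added 0.51 to every log2 fold change, and 86.0% of called genes were then higher, against 54.3% in the deposited values. Subtracting the mean of the T cell receptor genes Cd3d, Cd3e, Cd3g and Cd247 on each array took 0.59 from every log2 fold change, and 12.3% of called genes were then higher. This second scale is called receptor-scaled here. It shifts genes at the lower end of the arrays as well, so its 10012 falls (58.6% of genes) include genes that were dim on every array, while its 1409 rises (8.24%) are genes that rose more than the receptor genes did.

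**Figure D1:**
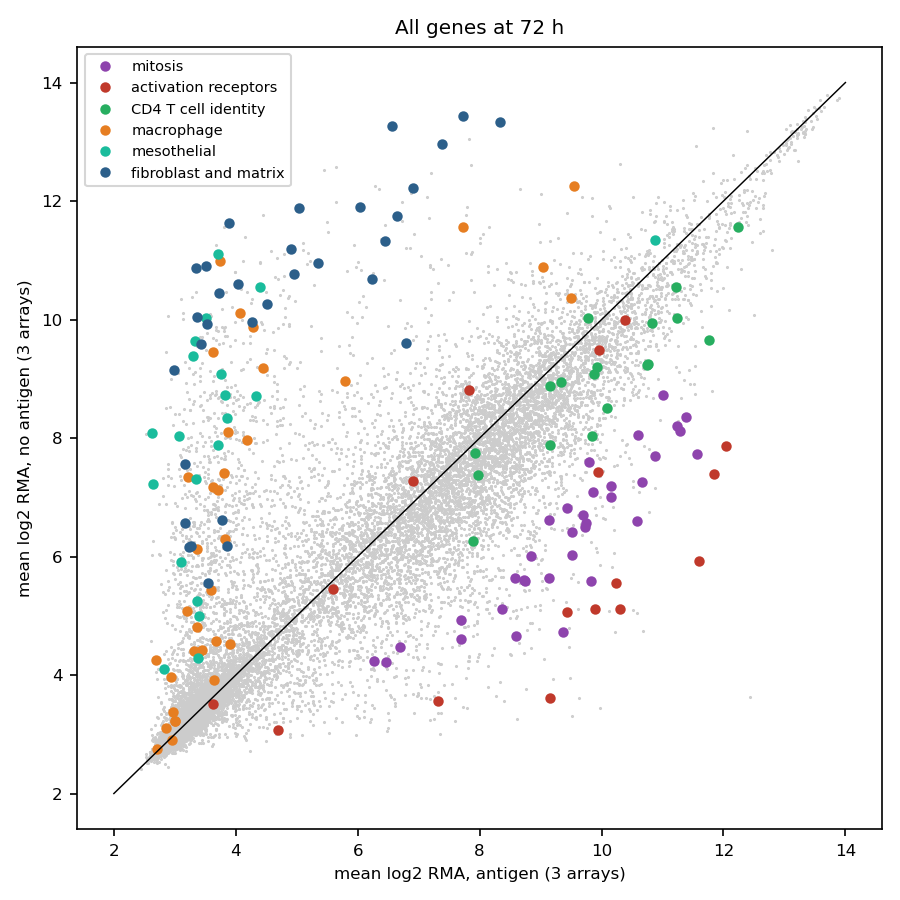
Mean log2 RMA expression of 17097 genes on the 3 antigen arrays (x axis) and the 3 no antigen arrays (y axis), with members of 6 lists coloured and a line where both are equal. Fibroblast and matrix genes lie above the line, at up to about 13 without antigen, and all 34 mitosis genes lie below it.

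The transcripts of the T cell receptor complex were present on all 6 arrays. The mean of the 4 CD3 genes was 10.89, 10.37 and 10.64 with antigen and 10.07, 10.14 and 9.92 without. Cd3g, which encodes the gamma chain, had 11.44, 10.95 and 11.27 with antigen and 10.50, 10.63 and 10.51 without, and rose by 0.67 ± 0.12 (limma adjusted p = 0.000888). Cd4 itself, the marker of the sort, had 8.30, 7.49 and 8.14 with antigen and 8.39, 6.95 and 6.81 without. Its groups overlapped and it was not called (log2 change 0.59 ± 0.45, adjusted p = 0.352). Among 18 genes of CD4 T cell identity and proximal signalling, 13 rose and none fell, with a median of 0.84 against 0.02 over all genes. On the receptor-scaled values 8 of them rose and 1 fell. The adhesion receptor gene Cd2 had the largest rise of the list, with 11.83, 11.73 and 11.73 with antigen and 9.29, 9.87 and 9.79 without (2.11 ± 0.15, adjusted p = 1.28e-06). Cd3e, 1 of the 4 CD3 genes, had 9.5, 8.73 and 9.24 with antigen and 9.2, 8.84 and 8.56 without and was not called (limma adjusted p = 0.493). Both groups thus carried abundant transcripts of T cells, and 13 of the 18 genes were higher with antigen. Whether this was more T cell RNA or more of these transcripts per cell was not tested.

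Receptors of T cell activation rose strongly. Of 17 activation and costimulatory receptors 12 rose and 1 fell, against 20.7% and 17.4% of all genes. The median was 3.75, and 10 rose at least 4-fold. Tnfrsf4, which encodes the costimulatory receptor OX40, had 11.98, 11.32 and 11.46 with antigen and 5.70, 6.14 and 5.92 without, a rise of 5.67 ± 0.19 (50.8-fold, limma adjusted p = 2.46e-08). The alpha chain of the IL-2 receptor, Il2ra, had 8.79, 9.98 and 8.69 with antigen and 3.41, 3.67 and 3.78 without, and antigen replicate 2 was the highest. Its beta chain gene Il2rb had 9.87, 10.79 and 10.26 with antigen and 5.39, 5.04 and 4.89 without (5.20 ± 0.23, adjusted p = 1.02e-07). The IL-2 receptor subunits thus moved out of the low range on every antigen array. The early activation marker Cd69 had 10.32, 9.64 and 9.72 with antigen and 4.79, 5.88 and 4.67 without. Icos, a costimulator of helper cells, had 9.89, 10.59 and 10.23 with antigen and 5.28, 5.63 and 5.78 without, and Tnfrsf18, encoding GITR, had 12.03, 11.60 and 11.89 with antigen and 7.18, 7.60 and 7.38 without. In each of these the groups were far apart. Other members gave no such change: Cd44, the adhesion receptor used to mark antigen-experienced cells, had 10.21, 9.55 and 10.11 with antigen and 9.69, 9.12 and 9.64 without (log2 change 0.47 ± 0.23, adjusted p = 0.14). Cd40lg, by which helper cells license their partners, stayed at the lower end of the arrays, with 3.40, 3.86 and 3.61 with antigen and 3.65, 3.42 and 3.46 without (adjusted p = 0.632).

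**Figure D2:**
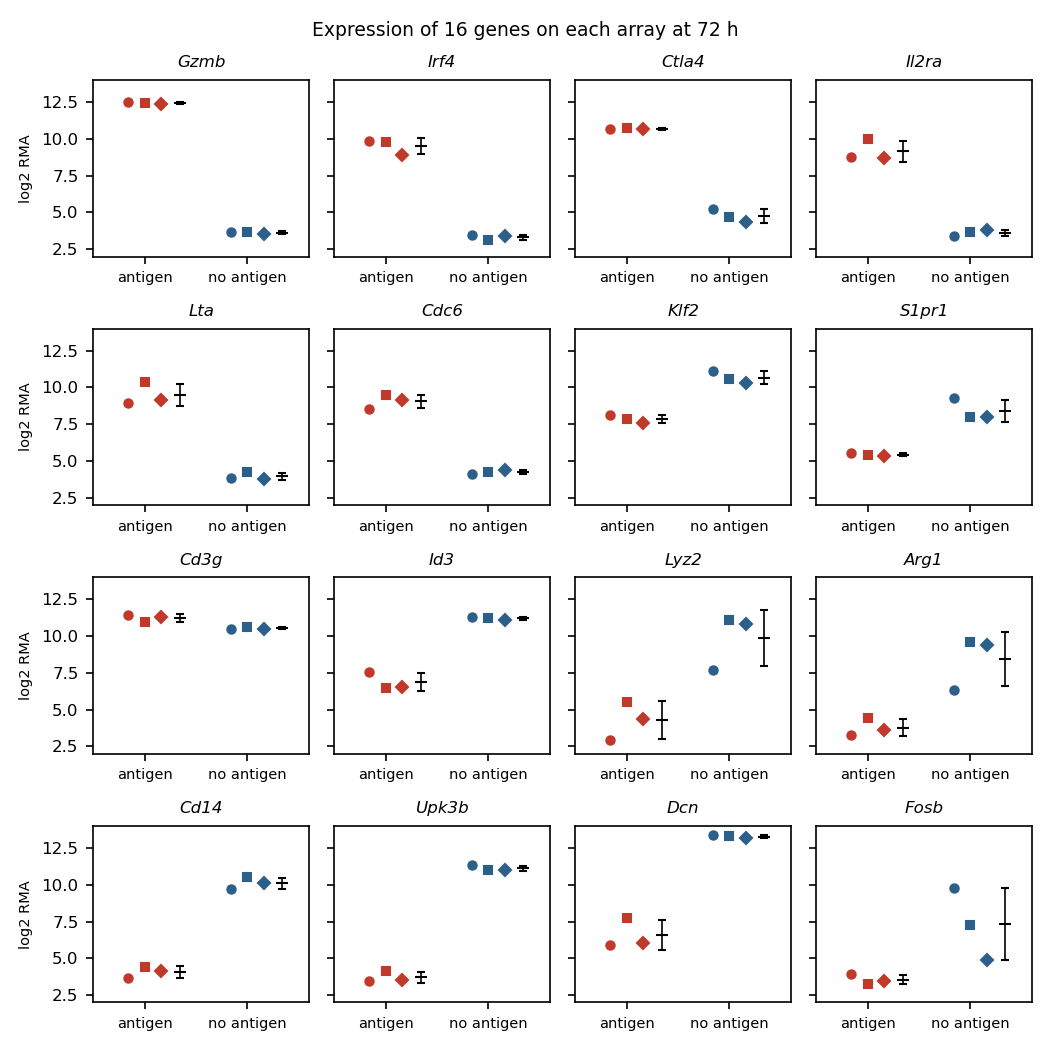
Log2 RMA expression of 16 genes on each array, with the 3 antigen arrays in red on the left and the 3 no antigen arrays in blue on the right of each panel. Circles, squares and diamonds are replicates 1, 2 and 3, and the bars beside them are the mean and SD (n = 3). Gzmb, Irf4 and Il2ra are high with antigen, Dcn and Upk3b are high without it, and Lyz2 and Arg1 are low on no antigen replicate 1.

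Inhibitory receptors rose with the activating ones. Of 11 inhibitory receptors and ectoenzymes 9 rose and none fell (median 2.18), against 20.7% and 17.4% of all genes. On the receptor-scaled values 9 also rose, against 8.24% of all genes. Ctla4, which competes with CD28 for its ligands, had 10.65, 10.74 and 10.64 with antigen and 5.24, 4.67 and 4.33 without (5.93 ± 0.40, 61-fold, limma adjusted p = 9.7e-07). Lag3, an inhibitory receptor that binds MHC class II, had 9.57, 6.89 and 8.55 with antigen and 3.91, 3.93 and 3.83 without. Its antigen arrays spread over more than 2 log2 units, with replicate 1 the highest and replicate 2 the lowest, and all lay above the no antigen arrays (4.45 ± 0.57, adjusted p = 8.47e-05). Izumo1r, which encodes folate receptor 4, had 10.13, 10.03 and 10.48 with antigen and 6.29, 5.91 and 5.97 without. Pdcd1, encoding PD-1, had 7.15, 5.49 and 6.30 with antigen and 4.10, 3.86 and 3.85 without, in the same replicate order as Lag3 (2.38 ± 0.34, adjusted p = 0.000201). Havcr2, encoding TIM-3, was at the lower end in both groups, with 3.41, 3.18 and 3.33 with antigen and 3.02, 3.07 and 3.49 without, and was not called (log2 change 0.11 ± 0.12, adjusted p = 0.536; -0.48 on the receptor-scaled values).

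Among 29 transcription factors of activation and helper subsets, 18 rose and 4 fell (median 1.18), against 20.7% and 17.4% of all genes. Irf4, a factor induced by receptor signal strength, had 9.84, 9.80 and 8.91 with antigen and 3.44, 3.13 and 3.37 without, a rise of 6.20 ± 0.34 (73.7-fold, limma adjusted p = 3.07e-07). Its relative Irf8 had 10.82, 10.34 and 10.57 with antigen and 4.68, 5.31 and 5.12 without. Nr4a3, an immediate target of receptor signalling, had 10.95, 10.06 and 10.55 with antigen and 4.90, 4.41 and 5.96 without. These factors were thus still far above the no antigen level at 72 h. Tbx21, encoding T-bet of the Th1 lineage, had 7.84, 7.19 and 7.01 with antigen and 3.03, 3.12 and 2.87 without (4.34 ± 0.26, adjusted p = 5.08e-07). Myc had 10.27, 10.42 and 10.27 with antigen and 9.20, 8.72 and 8.61 without, a rise of 1.48 ± 0.19 from a level that was already high (adjusted p = 9.89e-05). Gata3 of the Th2 lineage and Foxp3 of regulatory T cells were chosen after their values were seen. Gata3 had 8.52, 8.18 and 8.73 with antigen and 6.99, 6.72 and 5.58 without (2.05 ± 0.33, adjusted p = 0.000484), while Foxp3 stayed low, with 4.18, 4.32 and 3.97 with antigen and 3.06, 3.16 and 3.57 without (0.89 ± 0.28, adjusted p = 0.0238). The Foxp3 call was lost on the receptor-scaled values (adjusted p = 0.36) and without antigen replicate 1 or 2 or no antigen replicate 1 or 2 (adjusted p = 0.062 to 0.086). Bcl6, the factor of follicular helper cells, had 6.60, 4.78 and 5.80 with antigen and 6.92, 7.15 and 6.32 without and was not called (log2 change -1.07 ± 0.50, adjusted p = 0.119), but without antigen replicate 1 it was called lower (-1.51, adjusted p = 0.039).

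Among the falls, Id3, a repressor of E proteins, had 7.56, 6.50 and 6.52 with antigen and 11.28, 11.25 and 11.07 without (log2 change -4.34 ± 0.35, adjusted p = 3.44e-06). Maf had 4.08, 4.41 and 3.68 with antigen and 8.72, 8.53 and 8.36 without (log2 change -4.48 ± 0.37, adjusted p = 3.87e-06). Both genes are also expressed outside T cells, and the part of fibroblast, mesothelial and macrophage RNA in their no antigen level was not tested.

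Cytokine genes were higher as a group. Of 22 helper cytokines and TNF family ligands 16 rose and 1 fell (median 2.07), against 20.7% and 17.4% of all genes. At least 4-fold rises were seen in 11. Lta, which encodes lymphotoxin alpha, had 8.94, 10.35 and 9.14 with antigen and 3.86, 4.25 and 3.75 without (5.52 ± 0.31, 46-fold, limma adjusted p = 3.58e-07). Fasl, the death ligand, had 8.28, 7.56 and 7.56 with antigen and 3.74, 3.51 and 3.09 without, and Tnfsf11, encoding RANKL, had 7.48, 7.99 and 7.73 with antigen and 3.33, 3.83 and 3.22 without. The Th1 cytokine gene Ifng had 7.56, 6.75 and 5.52 with antigen and 3.71, 3.18 and 3.70 without, so its antigen arrays differed among themselves by about 2 log2 units but did not overlap the others (3.08 ± 0.44, adjusted p = 0.000182). Il2, the T cell growth factor, had 7.96, 5.21 and 5.18 with antigen and 3.57, 3.73 and 3.72 without (2.44 ± 0.64, adjusted p = 0.00981). Antigen replicate 1 stood well above the other antigen arrays, and without it the rise was 1.52. Tnf had 6.97, 7.26 and 6.91 with antigen and 3.73, 5.19 and 3.32 without. Il17a, the Th17 cytokine, had 5.24, 4.27 and 4.50 with antigen and 4.26, 3.78 and 3.84 without and was not called (adjusted p = 0.359). The single fall was Il10, a regulatory cytokine that macrophages also make, with 3.28, 3.32 and 3.37 with antigen and 3.53, 4.11 and 4.91 without, all in the lower range (log2 change -0.86 ± 0.28, adjusted p = 0.0328); it was named after its values were seen, and the call was lost with any 1 antigen array left out, or no antigen replicate 2 or 3 (adjusted p = 0.065 to 0.089).

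With each gene read from its probe set of highest mean, the largest rise was that of a granzyme. Gzmb, which encodes the serine protease granzyme B of cytotoxic granules, had 12.53, 12.41 and 12.38 with antigen and 3.67, 3.68 and 3.55 without (8.81 ± 0.28, 448-fold, limma adjusted p = 2.46e-08). It lay near the upper end of the arrays with antigen and at their lower end without it. Nkg7, a granule membrane protein gene, had 10.82, 8.56 and 9.52 with antigen and 3.68, 3.48 and 3.66 without, and Ctsw, encoding cathepsin W, had 9.96, 8.34 and 8.76 with antigen and 5.23, 5.87 and 5.23 without. In both, antigen replicate 1 was the highest and replicate 2 the lowest. The rest of the granule program did not follow evenly: 8 of 16 granzyme and granule genes rose and none fell (median 0.62), against 20.7% and 17.4% of all genes. On the receptor-scaled values 7 rose and 3 fell (median 0.04), against 8.24% and 58.6% of all genes. Gzmc had 5.76, 5.26 and 5.57 with antigen and 3.25, 2.99 and 2.82 without (2.51 ± 0.19, adjusted p = 2.3e-06). Prf1, encoding the pore protein perforin, had 6.11, 4.24 and 4.13 with antigen and 4.94, 5.13 and 4.77 without and was not called (log2 change -0.12 ± 0.47, adjusted p = 0.878).

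Further large rises lay outside these lists. Zbtb32, a repressor known to restrain T cell proliferation and cytokines, had 9.12, 8.53 and 8.21 with antigen and 3.24, 3.30 and 3.25 without. Gfi1, a repressor induced in activated lymphocytes, had 9.39, 9.04 and 9.19 with antigen and 3.62, 4.11 and 4.06 without. Akr1c18, which encodes a steroid-metabolizing dehydrogenase, had 9.85, 10.40 and 10.40 with antigen and 4.57, 4.80 and 4.78 without, and Samsn1, a lymphocyte adaptor gene, had 10.20, 9.89 and 10.26 with antigen and 4.76, 5.65 and 4.84 without. All 4 were at least 5 log2 units higher with antigen. A probe set annotated to Tg, the thyroglobulin gene, had 10.52, 9.88 and 9.51 with antigen and 3.64, 3.46 and 3.25 without (6.52 ± 0.31, adjusted p = 1.36e-07). On GRCm38.p6 the lymphocyte adaptor gene Sla (chr15:66780819-66831829) lies within Tg (chr15:66670754-66850721), and Sla, named after its values were seen, had 10.53, 9.72 and 9.90 with antigen and 7.40, 8.02 and 7.60 without on its own probe set (2.38 ± 0.25, adjusted p = 1.78e-05). Which transcript the Tg probe set reads was not tested.

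Genes of the resting state fell. In the list of 21 genes of the naive and quiescent state, 11 fell and none rose (median -0.95), against 17.4% of all genes called lower, and 17 fell on the receptor-scaled values (median -1.54), against 58.6% of all genes. On the centred scale the median was -0.44. Klf2, which maintains quiescence and the recirculation receptors, had 8.11, 7.87 and 7.59 with antigen and 11.13, 10.59 and 10.30 without (log2 change -2.82 ± 0.39, limma adjusted p = 0.000163). Its target S1pr1, the receptor by which T cells leave lymph nodes, had 5.52, 5.40 and 5.32 with antigen and 9.27, 8.02 and 7.96 without (log2 change -3.0 ± 0.53, adjusted p = 0.000836). Klf3 had 7.28, 7.83 and 6.84 with antigen and 10.70, 10.60 and 10.56 without. Each of the 3 was lower on every antigen array than on any no antigen array. Il6st, the shared signalling chain of IL-6 family receptors, had 7.78, 7.17 and 7.75 with antigen and 10.78, 10.59 and 10.01 without. Satb1, a chromatin organizer, had 11.94, 11.19 and 11.67 with antigen and 11.53, 11.32 and 11.35 without, and its groups overlapped (adjusted p = 0.487). Lef1, a factor of the naive state, had 8.55, 7.91 and 8.48 with antigen and 9.82, 9.15 and 8.81 without. Its groups did not overlap, and its log2 change of -0.95 ± 0.35 missed the threshold (adjusted p = 0.0565) but passed it when receptor-scaled (-1.54, adjusted p = 8.58e-05) and after quantile normalization (-1.06, adjusted p = 0.0341). On the 3 antigen arrays with pretreated macrophages Klf2 had 11.20, 9.27 and 10.37 and S1pr1 had 8.82, 6.34 and 7.61, in the same order as their fibroblast and matrix list means of 7.11, 4.90 and 5.80. On the no antigen arrays both genes also followed the matrix means (10.41, 10.18 and 9.74). On the antigen arrays neither gene did (matrix means of 4.72, 5.04 and 4.66). The part of stromal RNA in the falls of this list was not tested. Il7r, Ccr7, Tcf7 and Lck are not named to 1 gene by the annotation used here and were not analysed.

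The AP-1 family was lower at this time. Of 9 members 5 fell and none rose (median -1.34), against 17.4% and 20.7% of all genes. Fos had 9.42, 8.47 and 9.11 with antigen and 12.64, 12.16 and 11.55 without (log2 change -3.12 ± 0.46, limma adjusted p = 0.000249). Fosb had 3.92, 3.28 and 3.46 with antigen and 9.80, 7.29 and 4.90 without (log2 change -3.78 ± 1.06, adjusted p = 0.0151), and the no antigen arrays spread over almost 5 log2 units; without no antigen replicate 1 the fall was -2.54 and without replicate 3 it was -4.99. Jun had 7.14, 5.68 and 6.48 with antigen and 9.94, 9.29 and 7.92 without. In all 3 genes no antigen replicate 1 was the highest and replicate 3 the lowest. Junb, with 9.11, 8.12 and 8.51 with antigen and 10.06, 8.87 and 8.08 without, overlapped and was not called (adjusted p = 0.55). These genes are expressed in stromal cells as well, and the part of stromal RNA in their fall was not tested.

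Division genes rose almost without exception. All 34 genes of mitosis, kinetochore and spindle rose, each at least 4-fold (median 3.09), and 37 of 38 genes of DNA replication and S phase entry rose, 26 of them at least 4-fold (median 2.55), against 20.7% of all genes called higher and 3.01% called at least 4-fold higher. On the receptor-scaled values 34 of 34 and 34 of 38 rose. Cdc6, which loads the replicative helicase, had 8.57, 9.46 and 9.13 with antigen and 4.15, 4.25 and 4.41 without (4.78 ± 0.40, limma adjusted p = 4.26e-06). Mcm10, needed to start replication forks, had 8.52, 9.19 and 8.81 with antigen and 4.62, 4.37 and 4.38 without. Esco2, which acetylates cohesin in S phase, had 8.0, 8.41 and 8.79 with antigen and 3.41, 3.56 and 3.71 without. In each of these the no antigen arrays were near the lower end. Aurkb, the kinase of the chromosomal passenger complex, had 9.33, 9.01 and 9.78 with antigen and 4.70, 5.09 and 4.37 without. Replication and mitosis were thus both raised on all 3 antigen arrays. Cdk1, the mitotic kinase, had 10.90, 11.11 and 11.01 with antigen and 8.73, 8.51 and 8.91 without, a smaller rise (2.29 ± 0.35, adjusted p = 0.000288). Mki67, whose protein Ki-67 marks cycling cells, had 11.21, 11.15 and 11.48 with antigen and 7.85, 8.27 and 8.25 without. Kif11, the spindle motor Eg5, had 8.38, 8.79 and 8.59 with antigen and 4.54, 4.92 and 4.52 without. The no antigen level of Cdk1 and Mki67 was therefore well above the lower end of the arrays; which cells it came from was not tested.

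Genes of mitosis share promoter elements, and the sequences are shown because 34 of 34 rose together. The letters TTTGAA are the core of the cell cycle homology region (CHR) through which the DREAM and MMB complexes act. They occurred on either strand in promoters of 21 of 26 mitosis genes (80.8%), against 20.2% of the 27025 genes of the RefSeq table. RefSeq gave promoters for 26 of the 34 measured mitosis genes. Each promoter ran from 250 bases before to 50 after a gene's start, and a match in any promoter of a gene counted. CCAAT, bound by NF-Y, also occurred in 21 of 26 (80.8%), against 41.1% of all. Of 31 replication genes with a promoter, 6 held the E2F letters TTTCCCGC (19.4%, against 1.2% of all) and 7 the form TTTGGCGC (22.6%, against 0.6%), searched on both strands. The promoters of Cdk1, Kif11 and Cdc6 (RefSeq, GRCm38.p6) are given 5′ to 3′ on the strand of the gene. Capitals mark TTTGAA and CCAAT or their reverse complements in Cdk1 (chr10:69352863-69353162, minus strand) and Kif11 (chr19:37376132-37376431, plus strand), and the E2F letters, here as the reverse complement, in Cdc6 (chr11:98907901-98908200, plus strand). In Cdk1, TTTGAA began 71 and 15 bases before the start. A match is a description of these letters, not evidence of binding.
Cdk1: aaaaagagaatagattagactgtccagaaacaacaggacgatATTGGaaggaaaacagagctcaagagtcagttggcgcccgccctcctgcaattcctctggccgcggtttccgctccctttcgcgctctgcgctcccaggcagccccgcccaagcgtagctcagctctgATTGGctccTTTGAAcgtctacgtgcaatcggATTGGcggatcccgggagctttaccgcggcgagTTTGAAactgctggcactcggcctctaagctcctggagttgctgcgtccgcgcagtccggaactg
Kif11: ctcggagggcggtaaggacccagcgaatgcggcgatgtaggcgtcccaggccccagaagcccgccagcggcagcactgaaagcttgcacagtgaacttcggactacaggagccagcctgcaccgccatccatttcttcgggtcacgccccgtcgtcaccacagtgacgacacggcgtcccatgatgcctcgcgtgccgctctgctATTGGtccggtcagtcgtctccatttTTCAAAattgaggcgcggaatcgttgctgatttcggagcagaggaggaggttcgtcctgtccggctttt
Cdc6: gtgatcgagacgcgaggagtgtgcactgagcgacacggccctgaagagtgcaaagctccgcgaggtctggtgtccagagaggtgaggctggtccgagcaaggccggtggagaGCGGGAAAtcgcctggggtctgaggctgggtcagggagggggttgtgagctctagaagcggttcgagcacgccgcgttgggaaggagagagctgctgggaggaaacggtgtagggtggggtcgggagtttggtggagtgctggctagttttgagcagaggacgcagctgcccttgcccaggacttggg

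Cyclins and inhibitors of the G1 phase were mixed, with 8 of 16 higher and 5 lower (median 0.62), against 20.7% and 17.4% of all genes. When receptor-scaled, 5 were higher and 6 lower (median 0.03), against 8.24% and 58.6% of all genes. Rb1, encoding the retinoblastoma protein that holds E2F, had 10.14, 9.30 and 10.32 with antigen and 7.44, 7.98 and 7.72 without (2.21 ± 0.26, limma adjusted p = 4.09e-05). Ccnd3, encoding the cyclin D3 that T cells use, had 9.59, 9.57 and 9.90 with antigen and 8.46, 8.25 and 7.77 without (1.53 ± 0.19, adjusted p = 6.13e-05), but its other probe set went the other way (-0.71) and the mean of both gave 0.41 (adjusted p = 0.13). Ccnd1, the cyclin D1 of adherent cells, had 4.16, 4.20 and 3.96 with antigen and 8.13, 7.92 and 8.26 without, and the inhibitor Cdkn2b had 4.56, 4.24 and 4.73 with antigen and 9.54, 8.92 and 8.72 without (log2 change -4.55 ± 0.32, adjusted p = 1.28e-06). Both are also expressed by fibroblasts, whose part in these falls was not tested. Survival genes were mixed too: of 14 BCL2 family genes 6 rose and 2 fell (median 0.40), against 20.7% and 17.4% of all genes. Bcl2, the founding survival factor, had 10.42, 10.52 and 10.59 with antigen and 7.05, 7.38 and 7.12 without (3.33 ± 0.18, adjusted p = 2.59e-07), and Bcl2a1a had 10.10, 9.74 and 9.62 with antigen and 4.92, 7.10 and 6.74 without. Bmf, a death-promoting BH3-only gene, had 4.08, 3.69 and 4.32 with antigen and 6.43, 7.20 and 6.71 without (log2 change -2.75 ± 0.25, adjusted p = 8.06e-06). With any 1 no antigen array left out, 1 gene of the family was called lower.

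**Figure D3:**
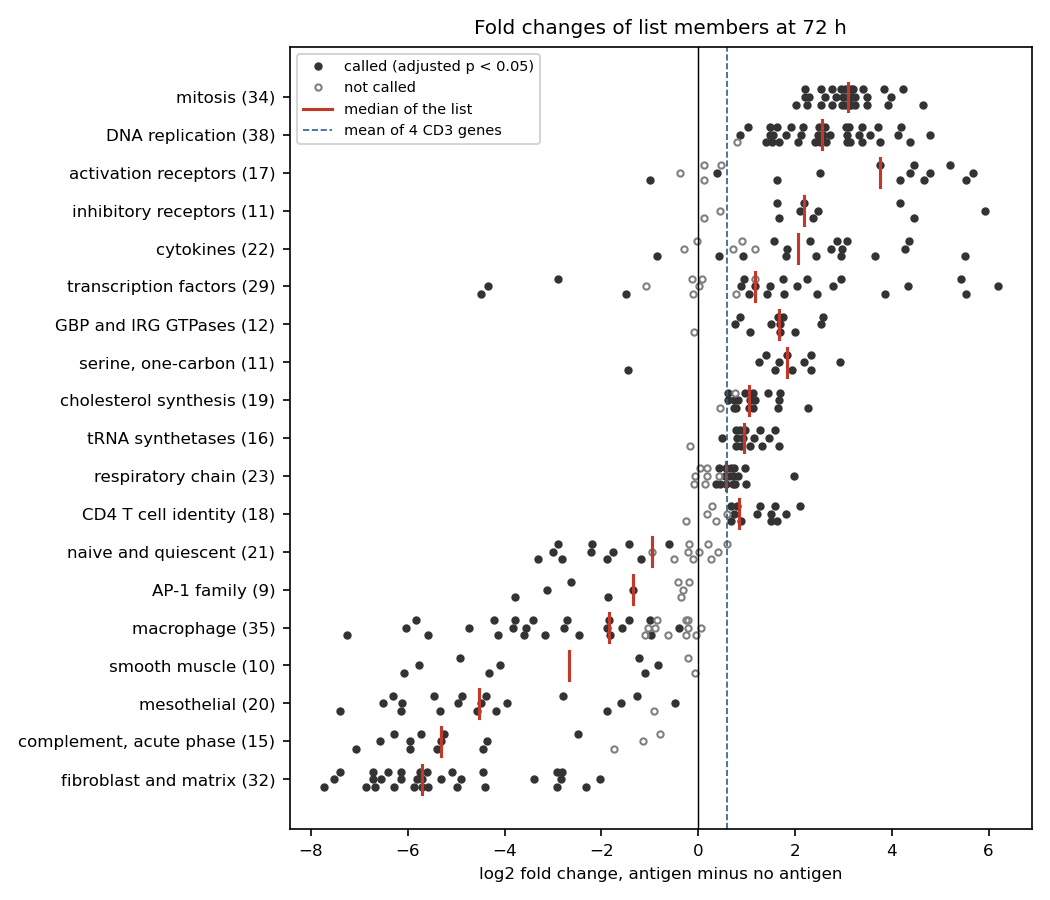
Log2 fold change (antigen minus no antigen) of each member of 19 lists, with the number of measured members in parentheses. Filled points were called at adjusted p below 0.05, red bars are medians, and the dashed line is the mean change of 4 CD3 genes (0.59). Mitosis and replication lie to the right of the dashed line, respiratory chain genes lie around it, and matrix, complement and mesothelial genes reach below -6; the shift of +0.51 by centring or -0.59 by receptor scaling turns no sign of the medians of these lists except that of the respiratory chain (-0.01 receptor-scaled).

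Biosynthetic genes rose in the deposited values, and here the scale decided how much was left. Among all genes 20.7% were higher in the deposited values and 8.24% when receptor-scaled. Of 11 serine, glycine and one-carbon genes 10 rose and 1 fell (median 1.83), and 9 still rose when receptor-scaled. Psat1, an enzyme of serine synthesis, had 10.47, 10.57 and 10.43 with antigen and 7.89, 7.20 and 7.58 without (2.93 ± 0.17, limma adjusted p = 3.54e-07). Of 16 nucleotide synthesis genes 13 rose and 1 fell, and 9 rose when receptor-scaled; Ppat, the first committed step of purine synthesis, had 8.63, 9.45 and 8.70 with antigen and 6.46, 6.79 and 6.95 without. Of 16 aminoacyl-tRNA synthetases 15 rose (median 0.94), and 7 when receptor-scaled. Vars had 8.66, 8.11 and 8.70 with antigen and 7.20, 6.96 and 6.33 without. Of 27 ribosome biogenesis genes 23 rose (median 1.0), and 10 when receptor-scaled; Rrp12 had 7.06, 7.69 and 6.87 with antigen and 4.98, 5.68 and 5.16 without. The respiratory chain and the proteasome moved by about as much as the receptor genes did. In the respiratory chain 16 of 23 rose (median 0.58), but 1 rose and 3 fell when receptor-scaled (median -0.01), and the 1 that still rose was Cycs, encoding cytochrome c, with 11.37, 11.82 and 11.39 with antigen and 9.32, 9.59 and 9.77 without. Of 25 proteasome genes 14 rose (median 0.49) and 1 when receptor-scaled (median -0.10), Psme3, with 8.16, 8.85 and 8.32 with antigen and 6.45, 7.01 and 6.90 without.

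Glycolysis genes moved unevenly, with 11 of 15 higher (median 0.58) and 5 when receptor-scaled (median -0.01). Among all genes 20.7% were higher, and 8.24% when receptor-scaled. The rises of the list were led by Slc2a3, the glucose transporter GLUT3, with 12.21, 11.54 and 11.67 with antigen and 8.80, 9.05 and 8.53 without (3.01 ± 0.35, limma adjusted p = 3.99e-05). Pfkp, the platelet-type phosphofructokinase, had 11.38, 11.14 and 11.22 with antigen and 8.15, 8.52 and 8.21 without (2.95 ± 0.16, adjusted p = 2.59e-07). Both were about 3 log2 units higher on the antigen arrays. Of 19 genes of cholesterol synthesis and its control 17 rose (median 1.06), and 5 when receptor-scaled. Mvd, which makes isopentenyl diphosphate, had 7.56, 8.06 and 8.42 with antigen and 5.23, 6.08 and 5.95 without, and Fdps had 11.16, 11.13 and 11.47 with antigen and 9.33, 9.54 and 9.81 without. Hmgcs1, an early step of the pathway, had 6.16, 7.03 and 7.74 with antigen and 6.0, 6.01 and 5.37 without, with antigen replicate 1 close to the no antigen arrays (1.18 ± 0.35, adjusted p = 0.0194). The letters CACCCCAC of the sterol regulatory element (SRE), searched on both strands, occurred in promoters of 1 of 15 genes of the list (6.7%, against 3.3% of all). The Hmgcs1 call was lost when receptor-scaled (adjusted p = 0.14) and without antigen replicate 2 or 3 or no antigen replicate 3 (adjusted p = 0.052 to 0.078).

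**Figure D4:**
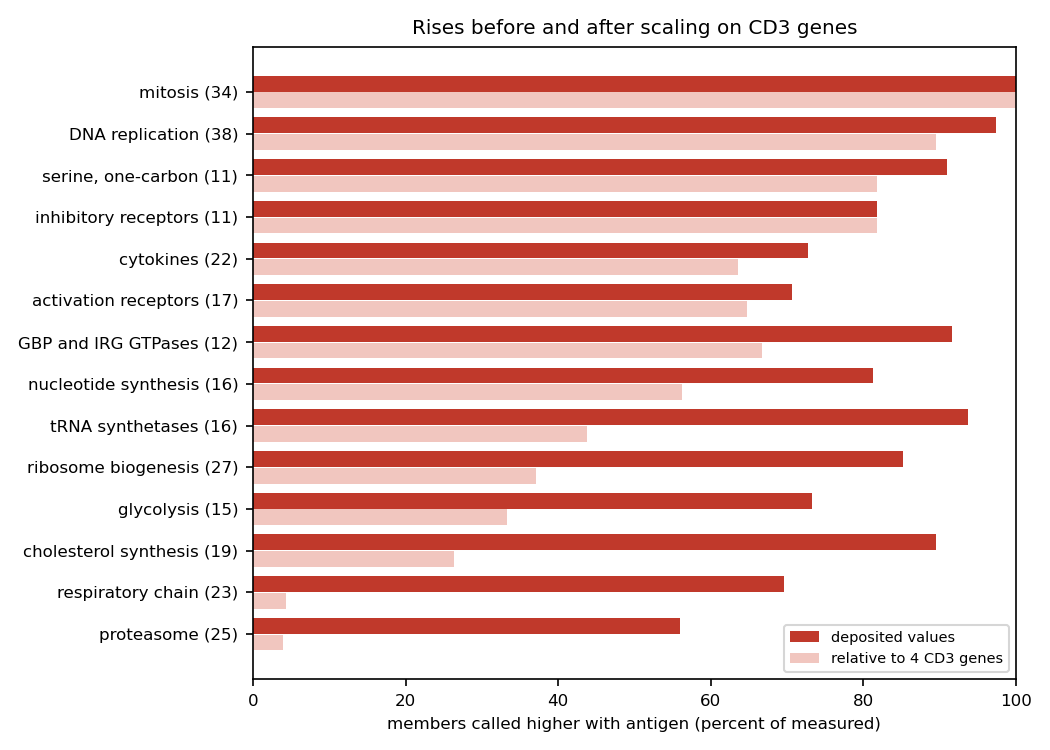
Percent of measured list members called higher with antigen in the deposited values (dark bars) and relative to the mean of 4 CD3 genes on the same array (light bars), with the number of members in parentheses. Mitosis stays at 34 of 34 members, while the respiratory chain drops to 1 of 23 and the proteasome to 1 of 25.

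The amino acid response, in which the factor ATF4 raises synthesis and uptake genes, was split. Of 26 ATF4 targets 14 rose and 6 fell (median 0.80), against 20.7% and 17.4% of all genes. Asns, encoding asparagine synthetase, had 10.41, 10.35 and 10.44 with antigen and 7.90, 7.85 and 7.89 without (2.52 ± 0.12, limma adjusted p = 1.73e-07), and the replicates of each group lay close together. The cationic amino acid transporter gene Slc7a3 had 6.76, 7.20 and 6.52 with antigen and 3.72, 4.23 and 3.95 without, and Slc7a5, the large neutral amino acid transporter LAT1, had 10.15, 9.86 and 9.82 with antigen and 7.84, 7.36 and 7.10 without. Among the targets that fell, the lipoprotein receptor gene Vldlr had 4.11, 4.01 and 4.28 with antigen and 7.30, 7.12 and 6.25 without, and Cebpb had 9.16, 8.88 and 8.94 with antigen and 11.43, 11.30 and 11.19 without. These are expressed in stromal and myeloid cells too, and the part of such RNA was not tested. The letters TGATGNAA of the composite C/EBP-ATF element (CARE), searched on both strands, occurred in promoters of 9 of 23 genes of the list (39.1%, against 4.5% of all). The list holds known ATF4 targets, so a high share says nothing about their change on these arrays. Vldlr, which fell, is among the 9. The Asns promoter (RefSeq, GRCm38.p6, chr6:7693160-7693459, minus strand) is shown because Asns is the standard readout of this response; the capitals mark those letters, 23 bases before the start.
Asns: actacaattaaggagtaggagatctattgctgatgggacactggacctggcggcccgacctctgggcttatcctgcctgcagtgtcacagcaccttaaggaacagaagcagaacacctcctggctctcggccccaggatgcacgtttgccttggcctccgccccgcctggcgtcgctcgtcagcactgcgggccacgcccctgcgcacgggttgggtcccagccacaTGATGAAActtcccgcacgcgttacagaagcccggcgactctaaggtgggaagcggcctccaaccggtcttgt

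Targets of interferon gamma and of type I interferon differed in their counts. Of 12 guanylate-binding proteins and related GTPases, which restrict intracellular pathogens, 11 rose and none fell (median 1.67), and 8 rose when receptor-scaled. Igtp had 11.34, 11.68 and 11.34 with antigen and 8.73, 9.21 and 8.80 without (2.54 ± 0.14, limma adjusted p = 2.86e-07), and Iigp1 had 8.31, 9.86 and 8.10 with antigen and 6.06, 6.88 and 5.58 without. Of 20 type I interferon response genes 3 rose and 1 fell (median 0.09), a share below that of all genes; the number of falls was 0 to 2 when arrays were left out in turn. The difference between both lists was not tested. Of 17 chemokine receptors and homing integrins 6 rose and 3 fell, and with any 1 antigen array left out 1 fell. Over all genes 20.7% were called higher and 17.4% lower, so the falls of this list were near that share. Cxcr3, which directs Th1 cells to inflamed tissue, had 6.24, 7.50 and 6.14 with antigen and 3.91, 4.07 and 4.38 without (2.51 ± 0.33, adjusted p = 0.00011), and Cxcr5, which directs cells to B cell follicles, had 6.38, 5.86 and 5.78 with antigen and 3.66, 3.88 and 3.48 without (2.33 ± 0.21, adjusted p = 6.18e-06). Of 7 chemokines 2 rose and 1 fell, near the shares of all genes, and 0 to 2 rose when arrays were left out in turn. Ccl4 had 7.24, 6.50 and 5.39 with antigen and 3.68, 5.13 and 4.61 without (adjusted p = 0.014); the call was lost without antigen replicate 1 (adjusted p = 0.062) or no antigen replicate 1 (adjusted p = 0.06).

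Genes listed for other cell types were among the largest falls. Of the 20 largest falls 8 were in such lists, against 1 of the 20 largest rises, Irf4, which plasma cells also use. The rest of these falls were in none of the lists. The lists were chosen with earlier results of these data known, and the share of all genes in them is not given here. All 32 fibroblast and extracellular matrix genes fell, each at least 4-fold (median -5.70), against 17.4% of all genes called lower and 5.84% at least 4-fold lower. The mean of the list was 4.72, 5.04 and 4.66 with antigen and 10.41, 10.18 and 9.74 without. Dcn, which encodes the matrix proteoglycan decorin, had 5.88, 7.73 and 6.07 with antigen and 13.35, 13.30 and 13.16 without (log2 change -6.71 ± 0.62, 105-fold, limma adjusted p = 8.14e-06). Fn1, encoding fibronectin, had 7.90, 8.95 and 8.18 with antigen and 13.49, 13.24 and 13.27 without. Both transcripts were near the upper end of the no antigen arrays, on which Cd3d, the T cell gene, also read 11.38, 11.73 and 11.57. Cdh11, a cadherin of fibroblasts, had 3.22, 4.53 and 3.92 with antigen and 11.91, 11.58 and 11.41 without, and Osr1, a factor of mesenchymal progenitors, had 3.41, 3.44 and 3.17 with antigen and 11.39, 10.97 and 10.25 without. Col1a1, encoding a chain of type I collagen, had 4.87, 5.04 and 4.82 with antigen and 12.90, 10.47 and 10.19 without, with no antigen replicate 1 the highest. On the antigen arrays Fn1 and Dcn remained above the lower end, and antigen replicate 2 was the highest of its group in both. In bulk samples, fewer cells of a type and less RNA per cell cannot be told apart.

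Mesothelial genes fell in the same way. Of 20 markers 19 fell and none rose (median -4.53), against 17.4% and 20.7% of all genes, and 15 fell at least 4-fold. The mean of the list was 3.86, 3.86 and 3.74 with antigen and 7.94, 8.04 and 8.02 without. Upk3b, a uroplakin that marks mesothelium, had 3.48, 4.15 and 3.49 with antigen and 11.31, 11.03 and 10.99 without (log2 change -7.40 ± 0.24, 169-fold, limma adjusted p = 2.46e-08). Wt1, encoding the mesothelial factor WT1, had 3.67, 3.62 and 3.95 with antigen and 9.53, 8.76 and 8.95 without, and Bnc1, encoding basonuclin, had 3.49, 3.63 and 3.40 with antigen and 10.16, 9.98 and 9.95 without. All 3 were at the lower end on every antigen array. Msln, encoding mesothelin, was dimmer, with 3.40, 3.50 and 3.27 with antigen and 4.27, 5.35 and 5.35 without (log2 change -1.60 ± 0.25, adjusted p = 0.000401). Bcam was not called (adjusted p = 0.168), with 3.54, 3.42 and 3.19 with antigen and 5.59, 4.0 and 3.29 without. Of 10 smooth muscle contractile genes 8 fell (median -2.66). Acta2, the smooth muscle actin that myofibroblasts and mesothelial cells also express, had 7.29, 7.11 and 7.03 with antigen and 12.15, 12.07 and 11.98 without (log2 change -4.92 ± 0.30, adjusted p = 5.68e-07). Myh11, the defining smooth muscle myosin, was at the lower end in both groups, with 3.37, 3.65 and 3.77 with antigen and 3.77, 3.63 and 4.02 without (adjusted p = 0.308).

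Complement, acute phase and chemokine genes of stroma gave the same picture. Of 15 members 12 were lower and none higher (median -5.31), against 17.4% and 20.7% of all genes. Clu, encoding clusterin, had 4.36, 6.82 and 5.15 with antigen and 12.37, 12.59 and 12.61 without (log2 change -7.08 ± 0.68, limma adjusted p = 1.14e-05). Cxcl12, the stromal chemokine that retains lymphocytes, had 4.20, 4.73 and 4.78 with antigen and 11.33, 10.97 and 11.15 without, and the monocyte chemokine gene Ccl2 had 4.35, 6.15 and 3.83 with antigen and 9.91, 11.24 and 10.36 without. In Clu and Ccl2 antigen replicate 2 was again the highest antigen array. Il6 was not called (log2 change -1.73 ± 0.66, adjusted p = 0.0621), with 3.02, 3.45 and 3.30 with antigen and 5.64, 5.40 and 3.91 without. Cxcl13, a chemokine of stromal and serosal cells that attracts B cells, had 3.18, 5.82 and 3.45 with antigen and 11.06, 12.13 and 11.02 without. With each gene read from its probe set of highest mean, Trf, encoding transferrin, had the largest fall of all genes, although the second probe set of Upk3b fell further (-7.95). Trf had 3.74, 3.99 and 3.68 with antigen and 11.61, 11.48 and 11.61 without (log2 change -7.76 ± 0.71, 217-fold, adjusted p = 7.88e-06). The junction genes Cdh2, with 3.05, 3.90 and 2.90 with antigen and 10.59, 10.24 and 10.30 without, and Cxadr, with 3.11, 3.14 and 3.14 with antigen and 10.09, 10.31 and 9.92 without, belong to the same 20 falls.

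Macrophage genes fell less evenly, and 1 array stood apart. Of 35 markers 24 fell and none rose (median -1.85), against 17.4% and 20.7% of all genes, and 16 fell at least 4-fold. The mean of the list was 4.19, 4.18 and 4.15 with antigen and 5.57, 7.30 and 6.81 without. No antigen replicate 1 was thus the lowest of its group, although its mesothelial and matrix levels were like those of the others. Without it 30 of 35 fell (median -2.26). Lyz2, encoding lysozyme M, had 2.95, 5.51 and 4.38 with antigen and 7.68, 11.11 and 10.83 without (log2 change -5.59 ± 0.83, limma adjusted p = 0.000246; -6.69 without no antigen replicate 1). Tyrobp, a signalling adaptor of myeloid cells, had 3.90, 4.12 and 3.63 with antigen and 5.50, 9.23 and 9.56 without. Arg1, the arginase of alternatively activated macrophages, had 3.29, 4.44 and 3.60 with antigen and 6.32, 9.59 and 9.38 without (log2 change -4.65 ± 0.71, adjusted p = 0.00031). All 3 were lowest on the same no antigen array. Cd14 and Apoe, which stromal cells can express as well, did not share that pattern to the same degree: Cd14 had 3.63, 4.43 and 4.14 with antigen and 9.74, 10.50 and 10.09 without, and Apoe had 3.55, 3.66 and 3.67 with antigen and 8.79, 9.95 and 9.65 without. Gata6, a factor of resident peritoneal macrophages and also of mesothelium, had 3.74, 3.86 and 3.61 with antigen and 11.11, 10.83 and 11.02 without (log2 change -7.25 ± 0.47, adjusted p = 8.42e-07), and replicate 1 was the highest.

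The defining surface markers of macrophages were dim in both groups. Adgre1, the adhesion receptor gene used to identify mouse macrophages, had 3.36, 3.38 and 3.19 with antigen and 3.38, 5.65 and 4.21 without (limma adjusted p = 0.0582), and Csf1r, the receptor for macrophage colony-stimulating factor, had 4.03, 4.10 and 3.58 with antigen and 4.12, 5.07 and 4.38 without (adjusted p = 0.0666). Neither was called, but without no antigen replicate 1 both fell (-1.62, adjusted p = 0.003 for Adgre1, and -0.82, adjusted p = 0.025 for Csf1r). Itgam, encoding CD11b, had 3.03, 2.97 and 3.03 with antigen and 2.67, 3.91 and 3.09 without. Of 16 markers of alternative activation 5 fell and 1 rose, against 17.4% and 20.7% of all genes. Mrc1, the mannose receptor, had 2.87, 3.13 and 3.12 with antigen and 3.77, 5.98 and 5.22 without, while Chil3, a strongly induced marker of this state, had 3.02, 2.85 and 3.07 with antigen and 2.73, 2.81 and 3.04 without (adjusted p = 0.595). The 1 that rose was Pdcd1lg2, encoding PD-L2, with 7.67, 7.01 and 6.69 with antigen and 3.85, 3.53 and 3.47 without (3.51 ± 0.28, adjusted p = 2.83e-06).

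**Figure D5:**
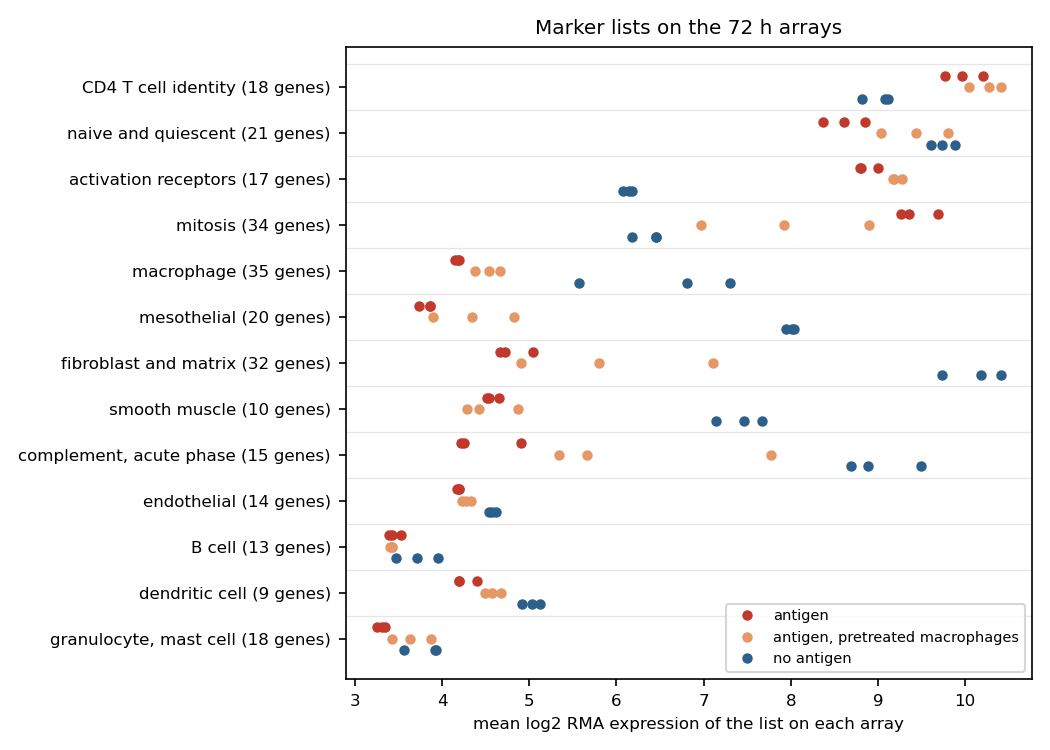
Mean log2 RMA expression of 13 lists on each 72 h array, with 3 points per group: antigen in red, antigen on pretreated macrophages in orange and no antigen in blue. Matrix genes lie between 4.66 and 5.04 with antigen and between 9.74 and 10.41 without, and macrophage genes are lowest without antigen on replicate 1 (5.57).

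Genes of MHC class II presentation were mixed. Of 11 members 3 rose and 1 fell, against 20.7% and 17.4% of all genes, and counts this small are not read as a result about the list. When receptor-scaled, 3 rose and 4 fell, against 8.24% and 58.6% of all genes. H2-DMa, which loads peptide on class II, had 8.58, 7.96 and 8.75 with antigen and 5.22, 5.65 and 5.52 without (2.97 ± 0.23, limma adjusted p = 2.67e-06), and its regulator H2-Oa had 7.38, 6.27 and 7.08 with antigen and 4.06, 4.16 and 4.06 without. Cd80, a ligand of CD28 and CTLA-4, had 6.23, 5.77 and 6.05 with antigen and 3.38, 3.05 and 3.42 without (2.73 ± 0.21, adjusted p = 2.41e-06). These 3 were higher on every antigen array. Cd74, the invariant chain, went the other way, with 4.88, 5.17 and 5.14 with antigen and 6.20, 5.59 and 6.17 without (log2 change -0.92 ± 0.22, adjusted p = 0.00523; not called after centring, adjusted p = 0.15, or quantile normalization, adjusted p = 0.1). H2-Aa, a class II chain, had 4.36, 3.97 and 4.36 with antigen and 4.17, 5.56 and 6.78 without and was not called (adjusted p = 0.0617), but without no antigen replicate 1 it fell (-1.94, adjusted p = 0.00094). Without antigen replicate 2, 5 of the 11 rose.

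Lists of other cells changed in part. The share that fell was above the 17.4% of all genes in the CD8 T and NK cell, endothelial, adipocyte, erythroid and platelet, dendritic and plasma cell lists, and below it in the B cell and granulocyte and mast cell lists. Of 13 B cell markers 2 fell and none rose; Cd79a, with 3.49, 3.75 and 3.68 with antigen and 3.64, 3.64 and 3.87 without, and Pax5, with 3.03, 3.0 and 3.04 with antigen and 3.18, 3.11 and 3.23 without, were at the lower end on all arrays and changed sign with centring (0.43 and 0.36). Of 10 CD8 T and NK cell markers 3 fell and 1 rose. The falls were Tyrobp (log2 change -4.21) and Fcgr3 (-3.59), which are both in the macrophage list too, and Klrd1 (-1.98). Cd8a had 3.65, 3.70 and 3.85 with antigen and 3.54, 3.48 and 3.51 without, and the riser was Klrk1, encoding the activating receptor NKG2D, with 7.63, 6.99 and 6.44 with antigen and 4.08, 3.54 and 3.94 without (3.17 ± 0.30, limma adjusted p = 1.08e-05). Of 14 endothelial markers 4 fell. Kdr, a receptor for vascular endothelial growth factor, had 3.97, 3.74 and 3.26 with antigen and 5.68, 5.98 and 5.62 without, while the endothelial cadherin gene Cdh5 had 2.95, 3.21 and 3.16 with antigen and 2.94, 3.03 and 2.95 without. Of 7 adipocyte markers 2 fell and 1 rose: Lpl, a lipase also made by macrophages and stroma, had 3.33, 3.90 and 3.79 with antigen and 10.67, 11.63 and 11.49 without, and Adipoq, the defining adipocyte gene, had 3.22, 3.25 and 3.0 with antigen and 3.28, 3.25 and 3.39 without. Of 18 neutrophil, eosinophil and mast cell markers 2 fell, Mmp9, with 3.68, 3.84 and 3.29 with antigen and 7.28, 7.28 and 7.24 without, and Cpa3, with 3.55, 4.53 and 4.26 with antigen and 4.51, 7.78 and 6.36 without. Of 9 dendritic cell markers 3 fell and none rose. Fscn1, encoding the actin-bundling protein fascin, had 7.82, 7.77 and 7.91 with antigen and 13.06, 13.02 and 13.04 without (log2 change -5.21 ± 0.49, adjusted p = 8.9e-06). Zbtb46, a factor of conventional dendritic cells, had 3.45, 3.55 and 3.50 with antigen and 5.09, 5.55 and 4.99 without, and Itgax, encoding CD11c, had 3.92, 3.84 and 3.66 with antigen and 3.98, 5.47 and 5.15 without. Fascin is also made outside dendritic cells, and the source of its no antigen level was not tested. Of 5 plasma cell markers Irf4 and Prdm1 rose and Jchain fell, and with arrays left out in turn between 1 and 2 rose and between 0 and 1 fell. Of 8 erythroid and platelet markers 2 fell. Hba-a1, a haemoglobin chain, had 3.88, 3.68 and 3.70 with antigen and 5.87, 7.57 and 8.20 without. With 1 array left out at a time, between 1 and 2 of the erythroid and platelet markers and between 1 and 3 of the granulocyte and mast cell markers fell, and the rise among adipocyte markers was called in 1 of 6 cases. On the receptor-scaled values, on which 58.6% of all genes fell, the falls were 11 of 13 for B cell, 7 of 10 for CD8 T and NK cell, 10 of 14 for endothelial, 4 of 7 for adipocyte, 6 of 9 for dendritic cell, 15 of 18 for granulocyte and mast cell, and 6 of 8 for erythroid and platelet markers.

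The T cell changes and the loss of other RNA ran through the same 6 arrays, and their link can be read only from values set side by side. The antigen arrays on pretreated macrophages had matrix levels of 7.11, 4.90 and 5.80 and mesothelial levels of 4.83, 3.89 and 4.34, below all no antigen arrays, while 1 of the matrix levels lay within the range of the antigen arrays (4.66 to 5.04). Their activation receptor level was 9.17, 9.19 and 9.28, against 9.0, 8.81 and 8.80 on the antigen arrays and 6.08, 6.18 and 6.14 on the no antigen arrays. Across the 3 pretreated arrays the activation receptor level differed by about 0.1. Levels of other lists on these arrays are set beside matrix here, and the order of 3 arrays is a description only. The mitosis level was 6.97, 8.90 and 7.92 and the DNA replication level 7.99, 9.11 and 8.70 on these arrays, lowest where matrix was highest. The level of naive and quiescent genes was 9.81, 9.03 and 9.44 and that of the AP-1 family 8.41, 7.12 and 7.40, both highest where matrix was highest. Within the no antigen arrays the naive level (9.89, 9.73 and 9.61) and the AP-1 level (8.80, 8.38 and 7.69) also followed matrix (10.41, 10.18 and 9.74). Within the antigen arrays both were lowest on replicate 2 (8.37 and 6.30), where matrix was highest (5.04). On that array mitosis was lowest (9.27) and DNA replication highest (9.30) of the group. What share of each T cell gene's change goes with the loss of other RNA was not tested. The receptor-scaled values give each change relative to transcripts that T cells make. On them 34 mitosis genes, 11 of 17 activation receptors and 14 of 22 cytokine genes rose, against 8.24% of all genes. On the same scale 2 activation receptors and 3 cytokine genes fell, against 58.6% of all genes.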

How the data were processed

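Expression was measured on Affymetrix HT_MG-430_PM arrays. The authors deposited log2 values for each probe set. Their processing notes name RMA, which corrects background, normalizes between arrays and summarises probes, and Affymetrix Expression Console 1.1. Which arrays were normalized together is not given in the sources used here. Array medians lay between 3.87 and 4.04. RMA narrows fold changes of dim probe sets, and the number of arrays limits the precision.

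The platform annotation gave 1 gene for 28898 of 45037 probe sets, several for 551 and none for 15588. The 17097 genes were each represented by its probe set with the highest mean over the 9 arrays at 72 h. Antigen minus no antigen was tested in R 4.3.3 by limma 3.58.1 (lmFit, eBayes with trend, two-sided, Benjamini-Hochberg over all genes) on 9 arrays in 3 groups, and a gene was called at adjusted p below 0.05. The limma fit was tried on 5 sets of simulated arrays in which 200 genes were changed, far fewer than were called here. Summaries used pandas 2.3.3 and figures matplotlib 3.10.9 under Python 3.11.15.

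Genes were named by rule: the 20 largest called rises and falls with no overlap between groups (provisional symbols such as clone names left out), up to 6 called members of each of 44 lists, members that did not pass the test where said, and fixed genes such as Il2, Arg1 and Cdk1. Members and lists were chosen with earlier results of these data known. Lists are described by counts and medians, with no test. Promoters came from RefSeq, GRCm38.p6. Alternatives changed the scaling (median centring, quantile normalization, receptor genes, for which 4 of 5 planned genes were named), the filter on genes below 5, the choice of probe set, the arrays in the fit, the trend, array weights, a replicate block and the threshold of 0.01. Same-numbered replicates did not deviate together (correlations of 0.15, 0.01 and -0.22 over 5000 genes), so numbers were not treated as pairs.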

Additional observations from a re-analysis of the deposited data

How the results depend on the processing

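Scaling moved the counts most. Relative to 3545 higher and 2982 lower genes in the deposited values, centring each array on its median gave 11019 higher and 1800 lower, and subtracting the T cell receptor genes gave 1409 higher and 10012 lower. Each adds the same amount to every fold change, so genes near 0 cross the threshold. The other alternatives stayed within 1.5 times. With the replicate block, 3581 genes were higher and 3020 lower, although replicate numbers were not treated as pairs in the main fit. Leaving out 1 array at a time gave 3042 to 3447 higher, 2592 to 2833 lower and 1503 to 1539 changed at least 4-fold. Of the genes named in the text, 4 that were not called in the deposited values were called with the opposite sign: Havcr2 to -0.48 when receptor-scaled, and Adipoq to 0.36, Cd79a to 0.43 and Pax5 to 0.36 when centred. With dim genes left out, those below a mean of 5 in every group have no value. Of 255 named called genes 119 have several probe sets, and 12 of those have one of opposite sign, 2 of them (Acsl4 and Ccnd3) by over 0.5. Genes near the lower end of the arrays have folds limited by that level.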

Other observations

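Other gene groups changed only in part, beside 20.7% of all genes called higher and 17.4% called lower. Of 18 genes of the unfolded protein response in the endoplasmic reticulum 8 rose and 4 fell, with a median of 0.16 in the deposited values and -0.43 when receptor-scaled. The stress-induced chaperone partner gene Sdf2l1 had 9.18, 9.60 and 9.23 with antigen and 6.64, 7.48 and 7.52 without (limma adjusted p = 4.46e-05), while the co-chaperone gene Dnajb9 had 6.96, 6.76 and 6.74 with antigen and 9.03, 8.89 and 8.65 without (adjusted p = 0.000261). Of 18 p53 targets 6 rose and 2 fell, with a median of 0.46 in the deposited values and -0.13 when receptor-scaled. The share of p53 targets that fell was below that of all genes. Perp, a membrane protein gene of this list, had 8.04, 5.10 and 8.41 with antigen and 3.46, 3.33 and 2.93 without (adjusted p = 0.000782), and Eda2r had 3.40, 3.37 and 3.20 with antigen and 6.81, 6.69 and 6.15 without (adjusted p = 1.08e-06).

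Of 13 amino acid transporters 5 rose and 3 fell, against 20.7% and 17.4% of all genes. Their median was 0.29 in the deposited values and -0.30 when receptor-scaled. Slc7a8, a light chain for neutral amino acids, had 2.85, 3.42 and 3.17 with antigen and 5.77, 5.35 and 4.62 without (limma adjusted p = 6.51e-05). Of 11 fatty acid synthesis and desaturation genes 4 rose and 2 fell, and the share that fell was near that of all genes. Their median was 0.39 in the deposited values and -0.20 when receptor-scaled, and 1 fell without antigen replicate 3 or without no antigen replicate 3. The acyl-CoA synthetase gene Acsl3 had 7.77, 8.45 and 8.37 with antigen and 5.89, 6.40 and 6.48 without (adjusted p = 8.37e-05), and the desaturase gene Fads1 had 8.19, 8.35 and 8.69 with antigen and 9.78, 9.45 and 9.24 without (adjusted p = 0.000752).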
